A study of Homo sapiens with 18 samples.

Results

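Transformed cells treated with triptolide (TAM + TPL) were compared with untreated, untransformed cells (NT) by RNA-Seq, to see whether 4 h of triptolide brought the transformed RNA profile nearer to that of untransformed cells or took it further away. The comparison rests on 4 of the 18 samples of the series, 2 libraries of TAM + TPL and 2 of NT, taken by their labels and not by any measured value. All groups are cultures of MCF10A-Er-Src, a human breast epithelial line that carries a v-Src kinase fused to the hormone-binding domain of the oestrogen receptor, so the untransformed cells hold the same silent fusion. NT cells received DMSO for 4 h, and TAM + TPL cells were transformed with tamoxifen and then received triptolide (TPL, labelled TPL-125nM) for 4 h. The other 4 RNA-Seq libraries served as reference points: 2 of tamoxifen-transformed cells in DMSO (TAM) and 2 of untransformed cells in TPL at the same dose (NT + TPL). The 2 conditions that separate TAM + TPL from NT, tamoxifen and TPL, act together in this comparison, and their parts can be read only from these reference groups. A line that is a single engineered derivative, with Src switched on by a drug, limits what the groups can stand for.

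In this system tamoxifen binds the fusion and releases the Src kinase, which drives an inflammatory loop through NF-kB, interleukin 6 and STAT3 that keeps the cells transformed. Triptolide binds XPB, the ATPase of the general transcription factor TFIIH that opens promoter DNA for RNA polymerase II (RNAPII), and so blocks initiation. Messages that turn over fast, such as those of cytokines and immediate early genes, are lost soon after such a block, whereas long-lived messages keep the level they had before it. RNA-Seq of equal library sizes measures the share of each message and not the RNA per cell.

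The libraries were similar in depth, with 7461309 to 8349448 expected counts. Of 23604 listed entries, 16948 passed the filter on low counts. Genes with any signal numbered 18524 and 18560 in the NT libraries and 20093 and 20156 in the TAM + TPL libraries, against 18485 and 18566 in TAM. Of 6 basal breast markers 5 reached 1 FPKM (fragments scaled to transcript length and library size) in all 4 libraries compared. TP63 was at 13.2 and 23.6 FPKM in NT and at 0.89 and 0.58 in TAM + TPL. KRT5 was at 6250 and 5776 FPKM in NT and at 475 and 434 in TAM + TPL. The summed level of the 6 basal markers, mostly KRT5 and KRT17, was 14782 and 13122 FPKM in NT and 2054 and 1877 in TAM + TPL. Of the 6, LAMB3 alone was higher, at 266 and 286 in NT and 306 and 299 in TAM + TPL. The sum of 4 general epithelial markers was 860 and 794 in NT against 609 and 610 in TAM + TPL. Of these, EPCAM alone was higher, at 25.1 and 24.2 in NT and 51.2 and 61.7 in TAM + TPL. Among leukocyte markers CD3E was at or below 0.17 FPKM and PTPRC at or below 2.14 in all 4, and CD68, a lysosomal protein of macrophages that epithelial cells also make, was at 47.2 and 47.1 in NT and at 473 and 407 in TAM + TPL, and its part in other results was not tested. Fibroblast, endothelial and adipocyte markers summed to at most 4.20, 1.12 and 2.30 FPKM. ESR1 was at 200 and 248 FPKM in NT and at 36.9 and 39.8 in TAM + TPL, and reads of the fusion cannot be told apart from those of the endogenous gene. In bulk RNA, fewer cells of a type and less RNA per cell cannot be told apart.

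Over the whole profile the treated transformed cells lay further from NT than the untreated transformed cells did. The distance between 2 libraries was taken as the root mean square (RMS) difference in log2 CPM (counts scaled to library size) over the 16948 genes. The 4 pairs of an NT and a TAM library were 1.16 to 1.22 apart, and the 4 pairs of an NT and a TAM + TPL library were 1.59 to 1.66 apart. Replicates of one group were 0.89 to 1.06 apart, so every TAM + TPL library was further from both NT libraries than any replicate from its partner. The mean distance to NT was 1.19 ± 0.0287 (SD, n = 2) for TAM and 1.62 ± 0.0414 (SD, n = 2) for TAM + TPL, a difference of 0.432 on the log2 scale. An exact two-sided permutation of the 4 libraries gave p = 0.333, the smallest value that 2 against 2 libraries can give. The plot of library pairs shows that TAM + TPL stood about as far from NT + TPL as TAM stood from NT.

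**Figure D1:**
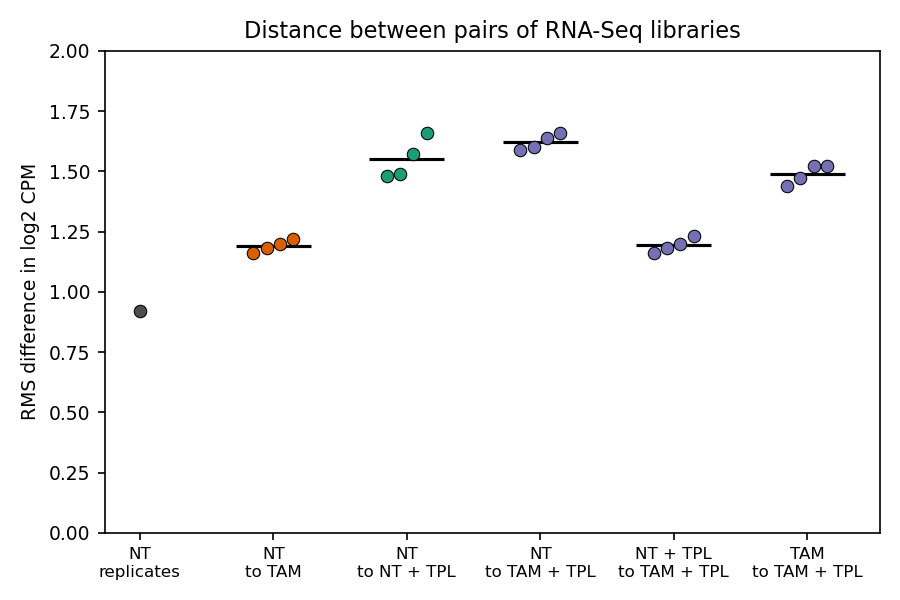
Distance between pairs of RNA-Seq libraries, as the RMS difference in log2 CPM over 16948 genes (y axis), for the NT replicates and 5 kinds of pairs between groups (x axis); points are library pairs and lines their means. The NT to TAM + TPL pairs, at 1.59 to 1.66, lie above all NT to TAM pairs, at 1.16 to 1.22, and the NT + TPL to TAM + TPL pairs lie between 1.16 and 1.23.

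A plain distance contains the scatter between replicates, so it was also computed from products of differences that use different libraries, to which independent scatter does not add. On this scale NT and TAM were 0.75 apart, NT and TAM + TPL 1.35, and TAM and TAM + TPL 1.18. TAM + TPL thus stood 1.79 times as far from NT as TAM did. NT + TPL was 1.19 from NT and 0.685 from TAM + TPL. The NT + TPL libraries were thus nearer to TAM + TPL than to the untreated cells they came from. Under the scalings, filters, prior counts and left-out libraries tried, the plain distance from NT stayed larger in TAM + TPL than in TAM, by 0.372 to 0.491.

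Along the direction that separates TAM from NT, treatment moved the transformed cells little. Each library was placed on a line from TAM (position 0) to NT (position 1), with the line drawn in one replicate number and the scale set in the other. The 2 TAM + TPL libraries had positions between 0.0308 and 0.18, with a mean of 0.101, which is 10.1% of the way to NT. The 2 NT + TPL libraries lay between 0.651 and 1.08. With all libraries scaled to equal GAPDH the mean position of TAM + TPL was -0.0179, so the direction of this small shift depended on the scaling. Under the other settings tried it was 0.0901 to 0.155. GAPDH scaling also moved the median difference of TAM from NT over all genes, from -0.03 to -0.50.

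The genes that set transformed from untransformed cells kept most of their difference under treatment. They were chosen in 1 replicate number, as genes at least 1.2 apart in log2 CPM between TAM and NT with a mean of at least 1 FPKM, and read in the libraries of the other number. The 809 and 823 genes chosen as higher in TAM had medians of 1.4 and 1.38 above NT in TAM and of 1.2 to 1.35 above NT in TAM + TPL. The 837 and 937 genes chosen as lower in TAM had medians of -1.31 and -1.10 in TAM and of -1.03 to -0.84 in TAM + TPL. NT + TPL lay between -0.14 and 0.35 for both sets. The TAM + TPL medians were nearer to 0 than those of TAM in each case, and the plot of these medians shows that they stayed much closer to TAM than to NT + TPL. All these values are taken relative to the same 2 NT libraries, so they are not independent of each other.

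**Figure D2:**
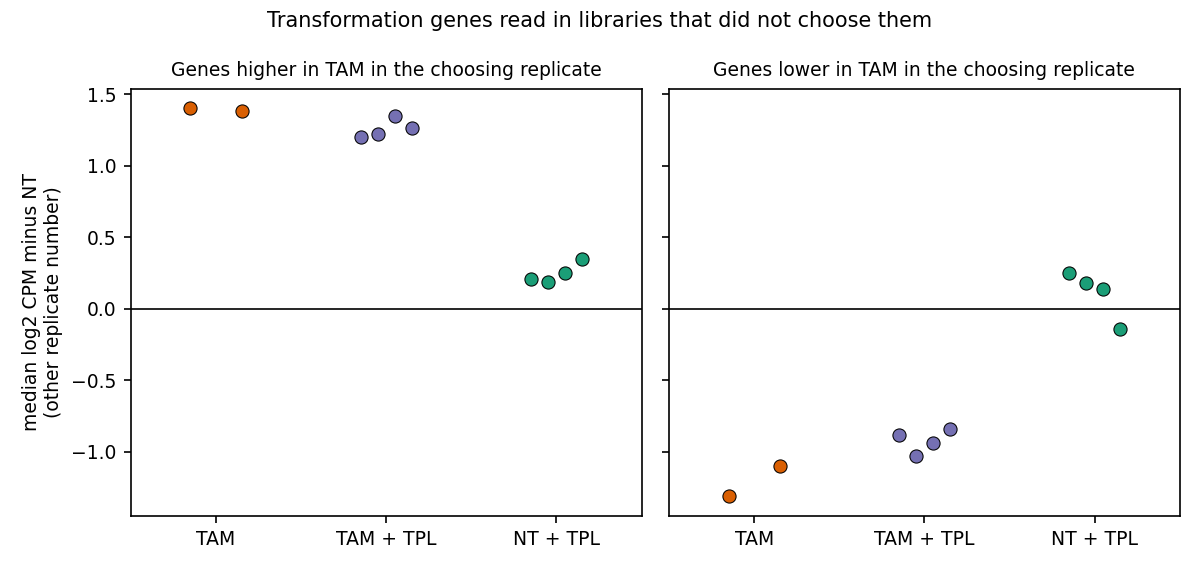
Median log2 CPM minus NT (y axis) of genes chosen as higher (left) or lower (right) in TAM, each point being 1 library of TAM, TAM + TPL or NT + TPL (x axis) read against the NT library of the replicate number that did not choose the genes. TAM + TPL lies at 1.2 to 1.35 on the left and at -1.03 to -0.84 on the right, beside TAM and away from NT + TPL, which lies between -0.14 and 0.35.

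Gene by gene, the quasi-likelihood test of edgeR called 355 genes higher and 681 lower in TAM + TPL than in NT, where a call needed an adjusted p (Benjamini-Hochberg) no larger than 0.001 together with a fitted difference of 1.2 or more on the log2 scale. These are 2.09% and 4.02% of the genes tested. The same rule called 64 genes (0.378%) higher and 47 (0.277%) lower in TAM than in NT, a comparison that uses the same NT libraries. By size alone 2836 genes were at least 1.2 higher and 2724 at least 1.2 lower in TAM + TPL. With 1 of the 4 libraries left out, a group holds a single library and the calls dropped to 11 to 20 higher and 0 to 19 lower, 11 and 10 without NT replicate 1, 17 and 19 without NT replicate 2, 20 and 5 without TAM + TPL replicate 1 and 15 and 0 without TAM + TPL replicate 2. With GAPDH as the reference, which moves the median fitted difference over all genes from 0.00 to -0.58, 188 genes were called higher and 1287 lower. The share of calls that were higher was 34.3% here, 12.7% with GAPDH as the reference and 54.1% with upper quartile scaling.

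A tally of fitted values put size to nearer and further. For each gene the distance of TAM + TPL from NT was set against the distance of TAM from NT. Of the 16948 genes, 541 (3.19%) were nearer to NT by at least 1.2 on the log2 scale after treatment and 2981 (17.6%) were further by as much, while 13426 (79.2%) moved by less. Any gene can move further, but a gene can come nearer by 1.2 only if TAM was at least 1.2 from NT, as it was for 2579 genes, of which the 541 are 21%, so the counts of nearer and further are not on an equal footing. Of 312 tested members of the 23 gene lists described here, 20 (6.41%) were nearer and 49 (15.7%) further, and the 20 are 20.2% of the 99 members that could come nearer, close to the share over all genes. Of those that came nearer, 6 were mitosis and 3 were DNA replication genes. Among those that went further were 7 inflammatory cytokines and chemokines and 9 immediate early factors. The genes that could come nearer were picked by the same TAM and NT values that measured the move. Scatter in those libraries alone can therefore make a gene come nearer, and its part was not tested.

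The 10 largest rises against NT were all in genes already above NT in both TAM libraries. STC1, which encodes the secreted glycoprotein stanniocalcin 1, was at 2.91 and 2.64 FPKM in NT and at 833 and 744 in TAM + TPL, with 543 and 553 in TAM. Its log2 fold change against NT was 8.12 (SE 0.171, adjusted p = 7.37e-06, edgeR), or 277 times. SERPINE2, a protease inhibitor of the extracellular space (chr2:224839762-224904035, hg19, minus strand), was at 2.40 and 2.52 FPKM in NT, at 148 and 153 in TAM and at 344 and 359 in TAM + TPL. It rose by 7.13 (SE 0.162, adjusted p = 7.37e-06), and the TAM + TPL libraries also lay above TAM, by 1.18 (adjusted p = 0.000911), just short of the size asked for a call there.

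TNC, the matrix glycoprotein tenascin C (chr9:117781854-117880486, hg19, minus strand), was at 0.88 and 1.05 FPKM in NT, at 75.9 and 56.9 in TAM and at 134 and 138 in TAM + TPL. It rose by 7.11 against NT (SE 0.286, adjusted p = 4.13e-05). DYSF, the membrane repair protein dysferlin, was at 0.24 and 0.44 FPKM in NT, at 59.8 and 46.9 in TAM and at 91.0 and 93.1 in TAM + TPL, a rise of 8.04 (SE 0.351, adjusted p = 5.22e-05). In STC1, SERPINE2, TNC and DYSF the NT libraries were lowest, the TAM libraries in between and the TAM + TPL libraries highest, with no overlap.

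The other large rises were OLAH (6.17), TNFRSF6B (6.09), S100A9 (5.90), SERPINB4 (5.79), IL1RL1 (5.73) and CTSL (5.51), as log2 fold changes against NT. S100A9, a calcium-binding protein of inflammation, was at 120 and 86.1 FPKM in NT, at 3770 and 3588 in TAM and at 5736 and 6868 in TAM + TPL. CTSL, the lysosomal protease cathepsin L, was at 28.2 and 34.8 FPKM in NT, at 674 and 739 in TAM and at 1435 and 1441 in TAM + TPL. IL1RL1, a receptor of the interleukin 1 family, was at 7.28 and 7.39 FPKM in NT, at 176 and 176 in TAM and at 399 and 398 in TAM + TPL. SERPINB4 was the exception in order, at 5.93 and 10.03 FPKM in NT, 570 and 593 in TAM, and 454 with 456 in TAM + TPL. SERPINB4 shares much of its sequence with SERPINB3, and TNFRSF6B overlaps a readthrough transcript of its neighbour RTEL1, so their reads may be split between entries.

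In 9 of the 10 largest falls against NT both TAM libraries were already below NT. In NT + TPL the log2 differences from NT were -4.14 for ALDH1A3, -4.61 for TGM1 and -3.58 for FJX1. Those in TAM were -3.53, -3.27 and -1.36. CXCL2 was at -4.87 in NT + TPL. For the others NT + TPL was nearer to NT than TAM was: KRT81 -1.55, CLDN1 -2.88, CD24 -2.49, ANXA8 -0.40, ANXA8L1 -0.59 and ETNK2 0.70. ALDH1A3, a retinaldehyde dehydrogenase (chr15:101417919-101456831, hg19, plus strand), was at 186 and 238 FPKM in NT, at 16.6 and 20.1 in TAM and at 4.25 and 3.22 in TAM + TPL, and fell by 5.90 on the log2 scale (SE 0.365, adjusted p = 0.000128). KRT81, a hair keratin with a near copy in KRT86, was at 2525 and 2123 FPKM in NT, at 80.2 and 72.6 in TAM and at 39.5 and 41.1 in TAM + TPL, and fell by 5.88 (SE 0.296, adjusted p = 7.71e-05). ETNK2, an ethanolamine kinase, was at 18.9 and 19.6 FPKM in NT, at 0.52 and 0.50 in TAM and at 0.78 and 0.51 in TAM + TPL. Its fall of 5.01 was thus at the level that transformation had set, and the TAM and TAM + TPL libraries overlapped.

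ANXA8, an annexin, was at 199 and 205 FPKM in NT, at 31.4 and 36.8 in TAM and at 5.67 and 6.38 in TAM + TPL, and fell by 5.09 (SE 0.201, adjusted p = 4.09e-05). Its near-identical copy ANXA8L1 gave a fall of 5.01, and reads cannot be assigned with certainty between them. FJX1, a secreted regulator of growth, was at 32.3 and 34.2 FPKM in NT, at 12.3 and 13.3 in TAM and at 0.84 and 0.59 in TAM + TPL, a fall of 5.57. CXCL2, a neutrophil-attracting chemokine, was at 181 and 167 FPKM in NT, at 388 and 398 in TAM and at 5.40 and 4.94 in TAM + TPL. It alone among the 10 was above NT in both TAM libraries, and it fell by 5.11 against NT (SE 0.316, adjusted p = 0.000128). The others were TGM1 (-5.72), a transglutaminase of squamous epithelium, CLDN1 (-5.25), a tight junction protein, and CD24 (-5.16), a surface glycoprotein.

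Among the calls, 38 had a group in which both libraries held 3 counts or fewer, 33 of them higher and 5 lower in TAM + TPL. HBA1, an alpha globin gene with a near-identical copy in HBA2, had 0 counts in both NT libraries and 928 and 750 in TAM + TPL, at least 287-fold higher against 3 counts per library, and was at 63.6 and 80.6 FPKM in TAM. TENT5C, a poly(A) polymerase, had 1 and 2 counts in NT, 14 and 8 in TAM, and 509 with 604 in TAM + TPL, at least 189-fold higher. ADAMTS4, a matrix protease listed under 2 entries, had 0 counts in NT and 447 and 493 in TAM + TPL, at least 160-fold higher for its main entry. In the other direction EPHB6, an ephrin receptor, had 239 and 210 counts in NT and 0 and 2 in TAM + TPL, at least 73.5-fold lower, with 2 and 0 in TAM. ANKRD2 was at least 38-fold lower. MACIR was at least 26.2-fold lower for 1 of its 3 entries, with 60.7 and 85.0 counts in TAM.

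Among genes called in TAM against NT with at least 10 counts in each NT and TAM library, the 6 largest rises were examined, and of these (STC1, DYSF, SERPINB4, TNC, SERPINE2 and PPP2R2C), each was also called in TAM + TPL. PPP2R2C, a regulatory subunit of protein phosphatase 2A, was at 0.82 and 0.93 FPKM in NT, at 40.4 and 37.1 in TAM and at 32.9 and 39.7 in TAM + TPL. Of the 6 largest falls by the same limits, ETNK2, KRT81, CCDC80, SYT8 and C1R were called lower in TAM + TPL, and CDKN1C was not. CDKN1C, the cyclin-dependent kinase inhibitor p57, was at 26.2 and 19.8 FPKM in NT, at 1.22 and 0.81 in TAM and at 3.58 and 4.39 in TAM + TPL, and its adjusted p against NT was 0.00117. C1R, a complement protease, was at 176 and 176 FPKM in NT, at 11.9 and 9.45 in TAM and at 17.2 and 18.1 in TAM + TPL. In the last 2 genes and in SYT8 and CCDC80 the TAM + TPL libraries lay above both TAM libraries but far below NT. The plot of levels by library sets these patterns side by side.

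**Figure D3:**
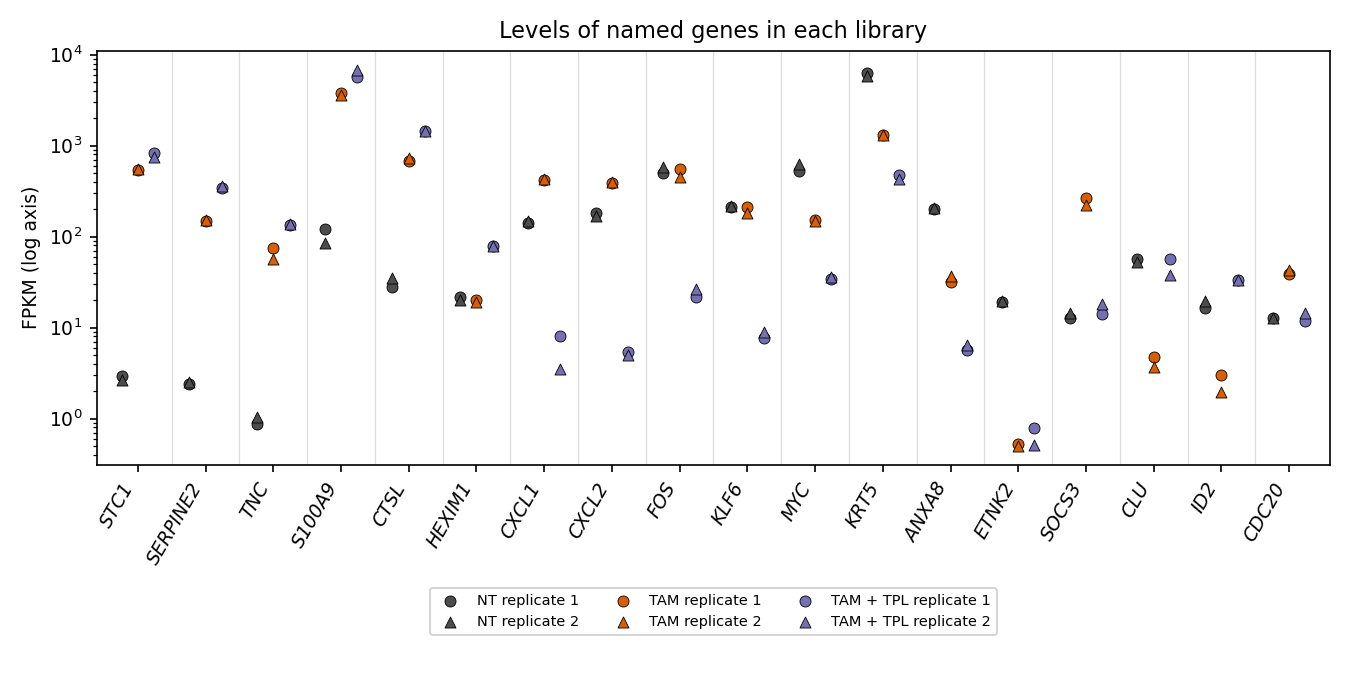
FPKM (y axis, log scale) of 18 genes (x axis) in the 2 libraries each of NT, TAM and TAM + TPL, circles being replicate 1 and triangles replicate 2. STC1, SERPINE2, TNC and CTSL step up from NT through TAM to TAM + TPL, CXCL1 and CXCL2 are above NT in TAM and below it in TAM + TPL, and SOCS3 is at 14.0 and 18.2 FPKM in TAM + TPL beside 12.8 and 14.4 in NT.

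Inflammatory cytokines and chemokines lay mostly below NT. Of 14 tested members 7 were called lower than NT and 1 higher, against 4.02% and 2.09% of all genes, and the median log2 fold change was -2.67 (-2.82 with genes near 0 at their bound), against 0.00 over all genes. In TAM the same 14 genes had a median of 1.38 above NT, and in NT + TPL one of -3.66. CXCL1, which with CXCL2 and CXCL3 forms a cluster of near copies on chromosome 4, was at 142 and 149 FPKM in NT, at 418 and 432 in TAM and at 8.06 and 3.48 in TAM + TPL, and fell by 4.70 (SE 0.461, adjusted p = 0.000523). CXCL3 was at 43.8 and 50.6 FPKM in NT, at 249 and 233 in TAM and at 5.92 and 3.88 in TAM + TPL, and fell by 3.29. CXCL8, interleukin 8, fell by 2.82, from 41.6 and 39.2 FPKM to 6.23 and 5.5. For each of these chemokines both TAM libraries were above NT and both TAM + TPL libraries below it.

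The interleukin 1 genes were also below NT. IL1B, the secreted form, was at 154 and 142 FPKM in NT, at 65.7 and 81.1 in TAM and at 10.2 and 5.51 in TAM + TPL, and fell by 4.27. IL1A fell by 2.52, from 67.3 and 74.3 FPKM to 13.1 and 12.1, and IL1RN, the receptor antagonist, fell by 5.24 for its main entry of 2. IL24, a secreted cytokine, went the other way: it was at 2.44 and 1.69 FPKM in NT, at 42.5 and 34.5 in TAM and at 35.4 and 38.7 in TAM + TPL, and rose by 4.24 (SE 0.198, adjusted p = 6.36e-05). CCL20, a chemokine for memory and dendritic cells, was not called, at 54.3 and 46.8 FPKM in NT, 134 and 173 in TAM, and 88.4 with 95.7 in TAM + TPL. CSF3, the granulocyte growth factor, was at 31.6 and 32.3 FPKM in NT, at 255 and 240 in TAM and at 9.93 and 6.72 in TAM + TPL, with an adjusted p of 0.00129 against NT that just missed the call. IL6, the cytokine of the loop named above, came back to the NT level: it was at 0.00 and 0.10 FPKM in NT, at 2.93 and 2.23 in TAM and at 0.00 and 0.10 in TAM + TPL, for the main of its 2 entries, so few reads stand behind it.

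The promoters of several of these genes hold the binding sequence of NF-kB close to the start of transcription. The motif GGGNNTTTCC was searched on both strands in RefSeq promoters (GRCh38.p14, 250 bases before to 50 after the start), in which 635 of 27305 symbols (2.33%) hold it. It was found for 6 of the 12 list members with a promoter entry (IL6, IL1RN, CXCL1, CXCL2, CXCL3 and CCL20) and for 9 of 11 NF-kB subunits and inhibitors, a family long known to regulate itself, and for 0 of 15 immediate early factors. The following 30-base windows, with the motif in capitals, are shown for 5 cytokines and chemokines, of which IL6 and CCL20 did not fall below NT, and for NFKBIA and TNFAIP3. IL1RN, which fell, holds the motif in another of its promoters and is not shown.
CXCL1, chr4:73869304-73869333, plus strand: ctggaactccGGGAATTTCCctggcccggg
CXCL2, chr4:74099254-74099283, minus strand: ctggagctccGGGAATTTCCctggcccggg
CXCL3, chr4:74038749-74038778, minus strand: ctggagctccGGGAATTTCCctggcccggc
IL6, chr7:22727117-22727146, plus strand: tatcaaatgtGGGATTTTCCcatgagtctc
CCL20, chr2:227813753-227813782, plus strand: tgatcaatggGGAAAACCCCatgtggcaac
NFKBIA, chr14:35404811-35404840, minus strand: tgactggcttGGAAATTCCCcgagcctgac
TNFAIP3, chr6:137867182-137867211, plus strand: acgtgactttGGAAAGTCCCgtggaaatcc

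In CCL20, NFKBIA and TNFAIP3 the motif lies on the opposite strand, and TNFAIP3 holds another copy 12 bases on. The motif begins 78 or 79 bases before the start in the 3 CXCL genes, 73 before it in IL6, 79 in CCL20, 81 in NFKBIA and 67 in TNFAIP3. The windows of the CXCL genes are alike almost letter for letter, while their values against NT were -4.70, -5.11 and -3.29. The AP-1 motif (TGACTCA or TGAGTCA) was in 4 of the 12 inflammatory promoters (IL11, IL1A, IL1RN and CXCL8) and in those of 6.05% of all symbols. A match to letters is a description and not a site shown to be bound. The 250 bases before the start of CXCL2 (chr4:74099196-74099445, minus strand, GRCh38.p14) are given whole, because its fall was the largest of the chemokines, with the same motif in capitals.
CXCL2 promoter: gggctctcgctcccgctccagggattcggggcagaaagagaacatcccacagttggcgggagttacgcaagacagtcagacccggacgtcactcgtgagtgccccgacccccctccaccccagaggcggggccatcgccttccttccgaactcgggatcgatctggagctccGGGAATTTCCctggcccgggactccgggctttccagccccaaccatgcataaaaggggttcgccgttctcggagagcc

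Of 13 NF-kB subunits and inhibitors 3 were called lower, against 4.02% of all genes, and 0 higher, with a median of -1.22. The 3 were NFKBIA, TNFAIP3 and TNIP1, which restrain the pathway. NFKBIA, which holds NF-kB in the cytoplasm, was at 301 and 261 FPKM in NT, at 429 and 423 in TAM and at 34.8 and 42.9 in TAM + TPL, and fell by 2.89 (SE 0.162, adjusted p = 0.000105). TNFAIP3, a ubiquitin-editing enzyme, fell by 2.55, from 31.5 and 34.8 FPKM to 6.20 and 5.33. The subunit RELA was at 58.2 and 69.0 FPKM in NT and at 30.7 and 24.9 in TAM + TPL, without a call (adjusted p = 0.00631). NFKB2 was at 15.4 and 14.5 in NT and at 19.0 and 18.2 in TAM + TPL. BCL3, a nuclear partner of NF-kB, was at 57.7 and 43.8 FPKM in NT, at 191 and 176 in TAM and at 13.8 and 9.07 in TAM + TPL (adjusted p = 0.00168).

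The JAK-STAT3 genes showed a return to NT in one member and a further fall in another. SOCS3, the feedback inhibitor that STAT3 induces, was at 12.8 and 14.4 FPKM in NT, at 268 and 222 in TAM and at 14.0 and 18.2 in TAM + TPL. Its difference from NT was 0.21 (SE 0.175, adjusted p = 0.37), and the libraries of the 2 groups overlapped. PIM1, a kinase of the same pathway, was at 12.5 and 14.7 FPKM in NT, at 2.98 and 2.43 in TAM and at 0.82 and 0.80 in TAM + TPL, and fell by 4.10 (adjusted p = 0.000314). STAT3 itself was at 38.1 and 42.5 FPKM in NT, at 53.4 and 50.8 in TAM and at 68.5 and 74.5 in TAM + TPL, without a call. The list as a whole had 1 call of 13, which was lower, against 4.02% of all genes. Its median of 0.14 turned to -0.46 with GAPDH as the reference.

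Immediate early factors, the transcription factors that growth signals switch on within minutes, were mostly below NT. Of 19 members 7 were called lower and 1 higher, against 4.02% and 2.09% of all genes, with a median of -1.49. FOS (chr14:75745529-75748933, hg19, plus strand) was at 503 and 576 FPKM in NT, at 555 and 454 in TAM and at 21.8 and 26.8 in TAM + TPL, and fell by 4.50 (SE 0.201, adjusted p = 5.42e-05). KLF6 was at 210 and 215 FPKM in NT, at 211 and 184 in TAM and at 7.60 and 9.04 in TAM + TPL, and fell by 4.70 (SE 0.17, adjusted p = 3.35e-05). In both genes NT and TAM overlapped, so all of the difference from NT appeared with treatment.

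MYC followed another course, at 532 and 623 FPKM in NT, 154 and 148 in TAM, and 34 with 36.3 in TAM + TPL, and fell by 4.07. JUN fell by 2.69, FOSB by 3.10, JUND by 1.49 and IER2 by 1.83. IER5 rose by 2.15 (adjusted p = 0.000482), from 19.6 and 20.9 FPKM in NT to 76.8 and 107 in TAM + TPL. EGR1 was at 412 and 555 FPKM in NT, at 212 and 172 in TAM and at 120 and 118 in TAM + TPL, without a call (adjusted p = 0.0057). Its promoter is 1 of 2 in the list, with that of SRF, to hold CCATATNAGG, the sequence of the serum response factor, which 45 of 27305 symbols (0.165%) hold.
EGR1, chr5:138465364-138465393, plus strand, GRCh38.p14: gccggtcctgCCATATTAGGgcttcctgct
SRF, chr6:43171229-43171258, plus strand, GRCh38.p14: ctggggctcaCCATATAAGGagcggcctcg

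The regulators that ERK signalling induces against itself had 2 calls of 11, both lower, against 4.02% of all genes, and a median of -1.33. DUSP1, a phosphatase of MAP kinases, was at 534 and 574 FPKM in NT, at 621 and 598 in TAM and at 21.4 and 34.7 in TAM + TPL, and fell by 4.33 (SE 0.251, adjusted p = 0.00011). DUSP4 fell by 1.99, from 32.3 and 34 FPKM to 8.37 and 8.75. DUSP6 was at 15.0 and 21.7 FPKM in NT, at 46.4 and 46.4 in TAM and at 7.37 and 7.48 in TAM + TPL (adjusted p = 0.0039). DUSP5 was at 7.76 and 9.66 FPKM in NT and at 18.9 and 19.7 in TAM + TPL, above NT but under the size of a call.

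All 17 mitosis genes were at least 1.2 from NT in TAM, and 35.3% of them came nearer by that much, against 21% of all genes that could. They had a median of 2.15 above NT in TAM and of 0.86 in TAM + TPL. Of the 17, 6 were nearer to NT by at least 1.2 and 0 were further. The same TAM and NT values chose which genes could come nearer and measured the move, and the difference in shares was not tested. CDC20, an activator of the anaphase-promoting complex, was at 12.9 and 12.8 FPKM in NT, at 39.3 and 42.5 in TAM and at 11.7 and 14.5 in TAM + TPL, a difference from NT of 0.00 (SE 0.189, adjusted p = 1.0). PLK1, a mitotic kinase, was at 4.77 and 4.99 in NT, at 23.6 and 20.4 in TAM and at 8.82 and 7.03 in TAM + TPL. AURKA, another, was at 3.81 and 3.42 in NT, at 13.5 and 17.2 in TAM and at 4.40 and 5.33 in TAM + TPL.

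Other mitosis genes were near their TAM level. TOP2A, topoisomerase II alpha, was at 2.26 and 1.97 FPKM in NT, at 10.1 and 12.4 in TAM and at 9 and 12.5 in TAM + TPL, and rose by 2.31 (adjusted p = 0.000418). BIRC5, survivin, was at 1.4 and 1.02 in NT, at 7.08 and 6.04 in TAM and at 8.55 and 9.25 in TAM + TPL, and rose by 2.88 (adjusted p = 0.000645). These 2 were the calls among 17 members, both higher, against 2.09% of all genes. At an adjusted p of 0.05 by edgeR, 10 mitosis genes were higher than NT and 0 lower, against 16.4% and 21.2% of all genes. DNA replication genes had a median of 1.48 above NT in TAM and of 0.44 in TAM + TPL (-0.16 with GAPDH as the reference). By edgeR 0 of 15 were called at this threshold. At an adjusted p of 0.05, 5 were higher and 1 lower, against 16.4% and 21.2% of all genes. Of the 9 that could come nearer to NT by at least 1.2, 3 did (33.3%), against 21% of all genes that could. These are too few genes to set the shares apart. CCNE1, cyclin E1, was at 4.81 and 3.97 FPKM in NT, at 12.8 and 11.8 in TAM and at 4.29 and 3.81 in TAM + TPL. Its relative CCNE2 was at 0.72 and 1.17, 3.39 and 3.35, and 4.99 and 6 in the same order.

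Basal epithelial genes lay mostly below NT. Of 15 keratins, laminins, integrins and other basal genes 5 were called lower and 0 higher, against 4.02% and 2.09% of all genes. Their medians were -0.88 in TAM and -1.64 in TAM + TPL. KRT5, the basal keratin whose levels are given above, was at 1308 and 1308 FPKM in TAM, and fell by 3.76 against NT (SE 0.146, adjusted p = 4.09e-05). KRT17 fell by 3.13, from 7284 and 6144 FPKM in NT to 831 and 742, with 1554 and 1408 in TAM. KRT15 was at 63.7 and 59.1 in NT, at 2.19 and 1.68 in TAM and at 2.80 and 1.47 in TAM + TPL, and fell by 4.89. TP63, the transcription factor of basal cells, was at 13.2 and 23.6 FPKM in NT, at 24.2 and 23.0 in TAM and at 0.89 and 0.58 in TAM + TPL, and fell by 4.68 (SE 0.414, adjusted p = 0.000373). The hemidesmosome genes ITGB4 and COL17A1 were not called, with log2 differences of -0.34 and -0.04.

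Squamous and S100 genes had 3 of 9 members called higher and 1 lower (TGM1), against 2.09% and 4.02% of all genes. Their medians were 1.79 in TAM and 2.37 in TAM + TPL. SERPINB3, a protease inhibitor of squamous epithelium, was at 22.5 and 19.4 FPKM in NT, at 712 and 747 in TAM and at 675 and 653 in TAM + TPL, and rose by 4.95 (SE 0.151, adjusted p = 2.24e-05). S100A9 and SERPINB4 were the others. S100P was at 16.1 and 12.5 FPKM in NT, at 45.3 and 52.6 in TAM and at 69.1 and 81.9 in TAM + TPL (adjusted p = 0.0023). Interferon-stimulated genes had medians of 1.64 in TAM and 1.37 in TAM + TPL. At an adjusted p of 0.05 by edgeR, 9 of 15 members were higher and 0 lower, against 16.4% and 21.2% of all genes. At the call threshold 1 of 15 passed, which was higher, against 2.09% of all genes. That call, IRF7, the master factor of interferon induction, rose by 2.67 (adjusted p = 0.000256), from 2.16 and 2.71 FPKM in NT through 10.4 and 8.84 in TAM to 14.8 and 16.9 in TAM + TPL. IFIT3 was at 4.63 and 5.18 in NT, at 15.2 and 16.8 in TAM and at 8.33 and 4.49 in TAM + TPL.

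Hypoxia and glycolysis genes had 2 of 15 called higher and 1 lower, against 2.09% and 4.02% of all genes, with medians of 1.17 in TAM and 0.58 in TAM + TPL (0.00 with GAPDH as the reference). VEGFA, the growth factor of blood vessels, was at 17.9 and 19.1 FPKM in NT, at 74.0 and 74.6 in TAM and at 44.1 and 42.2 in TAM + TPL, and rose by 1.24 (SE 0.128, adjusted p = 0.00062). PFKFB3, which drives glycolysis, was at 7.46 and 7.56 in NT, at 33.4 and 31.3 in TAM and at 38.3 and 42.5 in TAM + TPL, and rose by 2.45. ADM, the peptide adrenomedullin, fell by 2.29, from 23.6 and 25.6 to 4.51 and 5.74 FPKM. HIF1A, the oxygen-regulated factor itself, was at 42.5 and 65.2 in NT, at 175 and 180 in TAM and at 36.3 and 37.1 in TAM + TPL, below both NT libraries without a call, while its relative EPAS1 was at 22.1 and 31.3, 95.6 and 77.3, and 127 and 149 (adjusted p = 0.00112).

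Lists of the transcription machinery held 1 call of 14, 0 of 12 and 1 of 10, beside 2.09% of all genes called higher and 4.02% lower. Counts in lists this small cannot be told apart from those shares. Among P-TEFb, 7SK and BET genes, which control the release of paused RNAPII, 1 of 14 was called, higher, against 2.09% of all genes. At an adjusted p of at most 0.05 by edgeR 5 were higher and 2 lower, against 16.4% and 21.2% of all genes. HEXIM1, the inhibitor of P-TEFb, was at 21.4 and 20.0 FPKM in NT, at 20.0 and 19.2 in TAM and at 79.0 and 78.4 in TAM + TPL, and rose by 1.89 (SE 0.122, adjusted p = 0.000138). Of 12 RNAPII subunits 0 were called by edgeR, with 2 higher and 2 lower at an adjusted p of at most 0.05, where 16.4% and 21.2% of all genes stood. POLR2A, the largest subunit, was at 71.3 and 78.0 FPKM in NT, at 84.4 and 80.2 in TAM and at 563 and 398 in TAM + TPL, a difference of 2.65 (SE 0.315, adjusted p = 0.00104) that narrowly missed the call. Of 10 TFIIH subunits GTF2H4, which encodes p52, the partner of XPB, was called, against 4.02% of all genes called lower. It fell by 1.75 (adjusted p = 0.000964), from 15.9 and 14.5 FPKM in NT and 13.3 and 10.8 in TAM to 4.47 and 4.81. ERCC3, which encodes XPB, was at 15.2 and 18.1 in NT and at 10.5 and 10.6 in TAM + TPL, and GTF2H5, which encodes p8, was at 2.97 and 2.47 and at 3.75 and 4.80, neither with a call.

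Apoptosis regulators of the BCL2 and IAP families had 1 call of 15, which was higher, against 2.09% of all genes. PMAIP1, the death-promoting protein NOXA, was at 7.69 and 7.77 FPKM in NT, at 20.3 and 22.2 in TAM and at 57.6 and 61.6 in TAM + TPL, and rose by 2.91 (SE 0.148, adjusted p = 7.71e-05). MCL1, which NOXA binds, was at 189 and 209 in NT and at 128 and 117 in TAM + TPL (adjusted p = 0.0275). Of 14 p53 targets 1 was called higher and 1 lower, against 2.09% and 4.02% of all genes. SESN2 rose by 1.57 and ZMAT3 fell by 1.58. CDKN1A, the cell cycle inhibitor p21, was at 91.1 and 93.1 in NT, at 77.6 and 78.8 in TAM and at 181 and 143 in TAM + TPL (adjusted p = 0.0117). The medians of both lists, -0.13 and -0.08, changed sign under another scaling, to 0.15 and 0.20 with the upper quartile.

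ID genes and SMAD repressors had 2 of 8 called higher and 3 lower, against 2.09% and 4.02% of all genes. ID1, an inhibitor of basic helix-loop-helix factors, was at 90.6 and 77.6 FPKM in NT, at 97.8 and 103 in TAM and at 21.6 and 20.3 in TAM + TPL, and fell by 2.05. ID2, its relative, was at 16.5 and 19.4 in NT, at 3.01 and 1.98 in TAM and at 33.2 and 33.1 in TAM + TPL, above NT by 0.85 without a call. ID3 was at 40.4 and 40.3 in NT, at 2.61 and 2.80 in TAM and at 5.60 and 5.24 in TAM + TPL, and fell by 2.92. The 3 relatives thus took different courses: ID1 was low with treatment, ID3 was low in TAM and in TAM + TPL, and ID2 was low in TAM but not in TAM + TPL. BAMBI, a decoy receptor of the TGF-beta family, was at 3.71 and 4.07 in NT, at 15.8 and 18.3 in TAM and at 15.1 and 20.6 in TAM + TPL, and rose by 2.16.

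Of 14 mesenchymal genes 1 was called higher and 2 lower, against 2.09% and 4.02% of all genes. SNAI1, a repressor of E-cadherin, rose by 3.61 (SE 0.398, adjusted p = 0.000774). It went from 1.79 and 0.93 FPKM in NT through 3.27 and 4.67 in TAM to 19.7 and 14.5 in TAM + TPL. TGFBI fell by 2.55 and TAGLN, an actin-binding protein, by 3.89, and in both the TAM libraries lay between the groups. VIM, vimentin, was at 379 and 392 in NT and at 463 and 487 in TAM + TPL without a call. Of 10 tested matrix proteases and inhibitors 0 were called higher and 2 lower, against 2.09% and 4.02% of all genes. MMP3 fell by 3.39 and TIMP3 by 2.71, while MMP14 was at 50.7 and 58.4 in NT and at 195 and 179 in TAM + TPL (adjusted p = 0.00424). The medians of these lists were 0.06 and -0.04 and turned to -0.53 with GAPDH and to 0.24 with the upper quartile, respectively. Of 13 tested clock genes 1 was called higher and 0 lower, against 2.09% and 4.02% of all genes. That call, CRY2, rose by 1.75, from 2.38 and 2.56 FPKM to 8.99 and 8.08, against a list median of -0.89. At an adjusted p of 0.05 by edgeR, 1 clock gene was higher and 6 were lower, against 16.4% and 21.2% of all genes. Of 14 cholesterol synthesis genes 0 were called higher and 2 lower, against 2.09% and 4.02% of all genes. HMGCS1 fell by 2.55 and SQLE by 2.43, with a list median of -0.59. Of 20 ribosomal protein genes 0 were called by edgeR, 16 had an adjusted p of at most 0.05, all higher, against 16.4% of all genes, and their median was 0.76 against 0.29 in TAM.

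The 21 tested genes that the study names were chosen on these samples, so their direction is not independent evidence. Of these, 6 were called higher and 1 lower, against 2.09% and 4.02% of all genes, with a median of 1.24. By at least 1.2, 5 were nearer to NT than in TAM and 9 were further. Only 8 could come nearer by that much, and the 5 are 62.5% of them, against 21% of all genes that could. CLU, the secreted chaperone clusterin, was at 56.4 and 52.0 FPKM in NT, at 4.80 and 3.73 in TAM and at 57.1 and 37.8 in TAM + TPL. Its difference from NT was -0.22 (SE 0.229, adjusted p = 0.474), with overlapping libraries. CEMIP2, a hyaluronidase, rose by 3.77 (SE 0.234, adjusted p = 0.000129), from 3 and 4.3 FPKM in NT to 48.7 and 53.3. FAM111B was at 1.48 and 2.12 in NT, at 8.04 and 7.23 in TAM and at 2.52 and 2.58 in TAM + TPL. The plot of list medians shows the chemokines as the list with the widest swing, from above NT in TAM to below it with treatment, and mitosis and replication genes as lists whose medians lay nearer to NT.

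**Figure D4:**
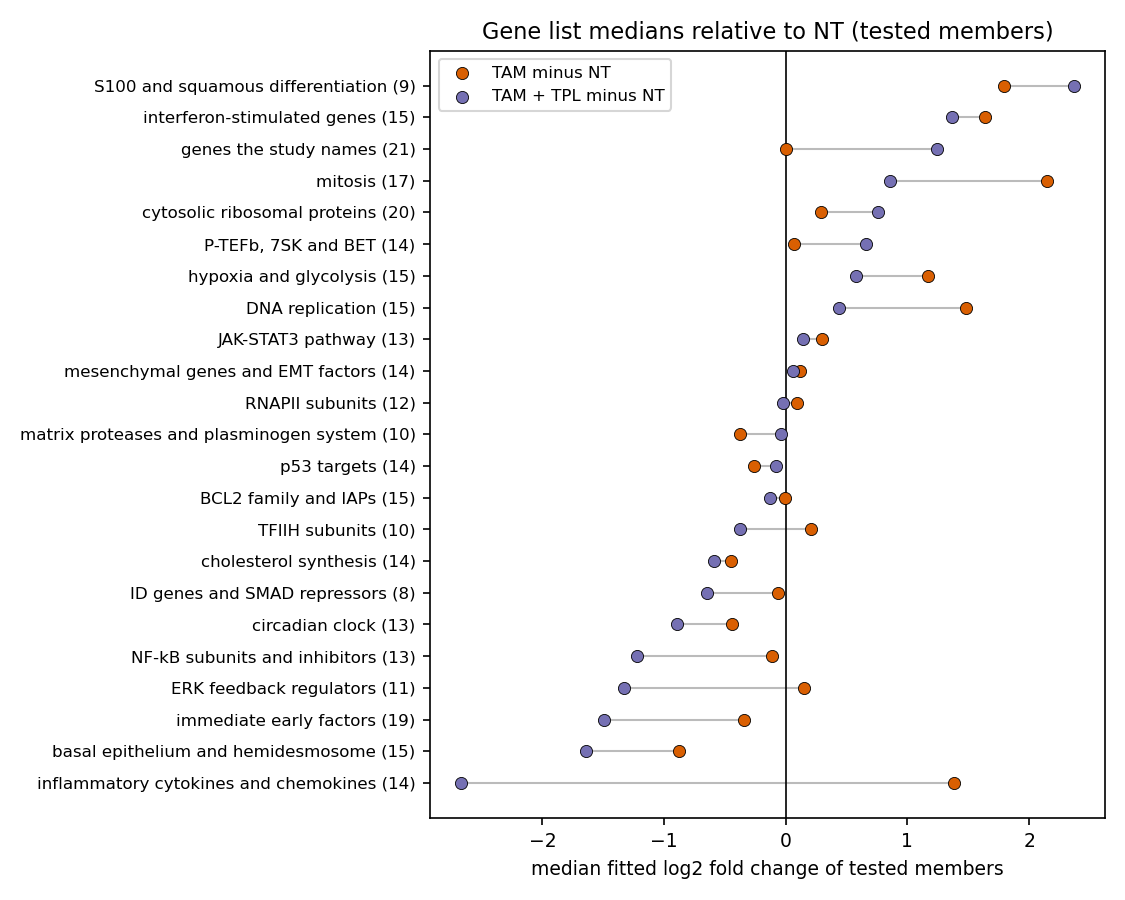
Median fitted log2 fold change against NT (x axis) of the tested members of 23 gene lists (y axis, number tested in brackets), for TAM minus NT and TAM + TPL minus NT, which share the NT libraries. Inflammatory genes go from 1.38 to -2.67, mitosis genes from 2.15 to 0.86, and S100 and squamous genes from 1.79 to 2.37.

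The 312 tested list members together had 18 calls higher and 38 lower, against 2.09% and 4.02% of all genes. Without 1 of the 4 libraries these dropped to between 1 and 2 higher and between 0 and 5 lower: 2 and 3 without NT replicate 1, 2 and 5 without NT replicate 2, 1 and 1 without TAM + TPL replicate 1 and 1 and 0 without TAM + TPL replicate 2. With GAPDH as the reference 10 were higher and 53 lower. Of the 82 named genes that were called, 0 changed sign under the settings tried. These genes were chosen for a difference of at least 1.2 in these same libraries, so a change of sign was unlikely from the start.

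A comparison that shares no library with TAM + TPL against NT is TAM against NT + TPL, in which transformation enters with the same sign and TPL with the opposite one. Across the 16948 genes the 2 differences had a Spearman correlation of -0.479 and a Pearson correlation of -0.39, as a description across genes, which are not independent replicates. Of the 355 genes called higher in TAM + TPL than in NT, 171 (48.2%) were at least 1.2 lower in TAM than in NT + TPL, against 18.8% of all genes, and 89 (25.1%) were at least 1.2 higher, against 16.5%. Of the 681 genes called lower, 405 (59.5%) were at least 1.2 higher in TAM than in NT + TPL and 73 (10.7%) at least 1.2 lower. More of the calls thus changed sign when TPL changed sides than kept the sign of transformation.

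RNAPII peak lists of the same 2 conditions gave a separate readout at the start sites. A list holds 11222 peaks for NT and 8464 for TAM + TPL, with positions on hg19 and no heights. Of 336 called-higher genes with a start site on hg19, 53.3% had it in an NT peak and 50.6% in a TAM + TPL peak. Of 664 called-lower genes 79.7% had it in an NT peak and 46.7% in a TAM + TPL peak, and for all tested genes the shares were 63.8% and 50%. Genes lower in RNA had thus lost a listed peak more often than tested genes as a whole, 57.7% of those with an NT peak having one in TAM + TPL against 75.9%, while for genes higher in RNA it was 84.4%. CXCL2, FOS and KLF6, which fell, had a start site in a peak of both lists. STC1 and SERPINE2, which rose, had one in the TAM + TPL list but not in the NT list, and DYSF and IL1RL1 had one in neither.

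**Figure D5:**
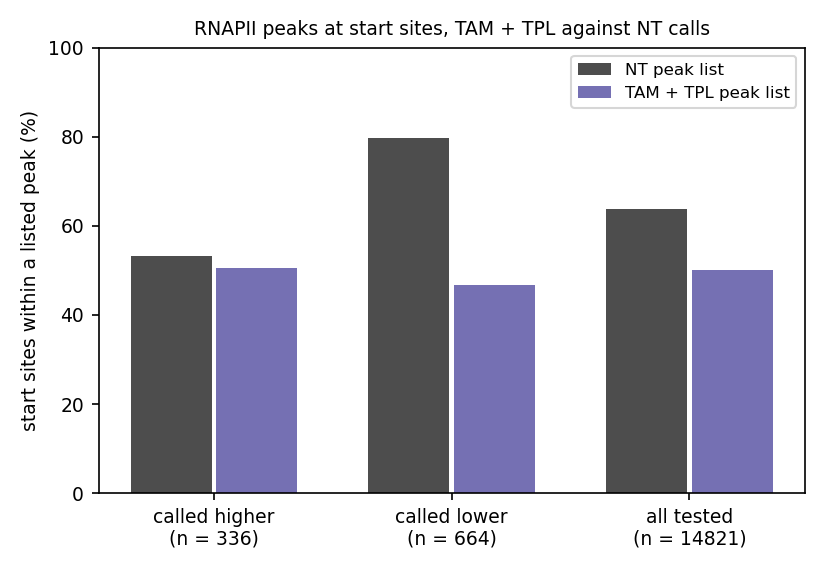
Share of start sites within a listed RNAPII peak (y axis, percent) for genes called higher or lower in TAM + TPL against NT and for all tested genes (x axis, number with a start site in brackets), in the NT and the TAM + TPL peak list. Called-lower genes go from 79.7% to 46.7%, called-higher genes from 53.3% to 50.6%.

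Transcript length bore little relation to the difference. Across genes the Spearman's rho of TAM + TPL minus NT with length was -0.0544, smaller in size than that of the difference between the NT replicates, -0.301. The part of this length trend in single gene values was not tested.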

How the data were processed

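RNA-Seq of poly-A RNA was read in 8 libraries, 2 biological replicates each of NT, NT + TPL, TAM and TAM + TPL, and the comparison used TAM + TPL and NT. The authors mapped reads with Bowtie2 and deposited, per gene entry, RSEM expected counts and FPKM values. Entries without reads are left out of a library's file and were set to 0. RNAPII peak lists, deposited as positions on hg19, hold no signal values. Whether replicates were pooled in them is not given in the sources used here, and the peak names carry replicate 1.

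The expected counts were rounded and fitted with edgeR 4.0.16 (R 4.3.3): TMM scaling, filterByExpr, the quasi-likelihood test on all 4 groups, and Benjamini-Hochberg adjustment over 16948 genes. Calls required adjusted p no larger than 0.001 together with a fitted log2 difference of 1.2 or more. Library distances used log2 CPM with a prior count of 2. FPKM values are given as levels and were tested only in an alternative with limma 3.58.1. Of 23604 entries, 21077 numeric gene IDs and 2382 RefSeq accessions were matched to a symbol and 145 were not. A symbol with several entries is given by its main one. Start sites were the canonical ones of GENCODE release 44 on hg19. Promoters came from RefSeq on GRCh38.p14. The scripts were tested on simulated counts.

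Genes were named as the 10 largest rises and falls among calls with at least 10 counts in each library, a mean of at least 1 FPKM and groups that did not overlap, the 3 largest lower bounds each way, the 6 largest rises and falls among calls of TAM against NT with at least 10 counts in each of those libraries, members of the 23 gene lists (in each up to 4 with the smallest p and any that is counted) and genes the study names. SOCS3, CLU, IL6 and other list members whose values stood near NT were singled out after their values were seen. Members and lists were chosen with earlier results of these data known.

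Alternatives were DESeq2 1.42.0, other scalings, filters, prior counts, a replicate block, a fit of the 2 groups alone, other start sites, entries with numeric gene IDs alone, and each library left out in turn. The peak lists of the other conditions were not used here.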

Additional observations from a re-analysis of the deposited data

How the results depend on the processing

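The sign of the axis position and of several list medians changed with the scaling, and upper quartile scaling made 54.1% of calls higher. No called gene among those named changed sign, which their choice by a large difference in these same libraries made unlikely from the start. Of the calls of TAM + TPL against NT, 355 higher and 681 lower, DESeq2 gave 1202 and 1653, GAPDH as the reference 188 and 1287, at least 10 counts in every library 600 and 1152, a fit of the 2 groups alone 208 and 348, an adjusted p of 0.05 1821 and 2068, and upper quartile scaling 410 lower. Without 1 library in turn they were 11 to 20 and 0 to 19, in a fit of all groups in which the lone library is assumed to vary like the others. For TAM against NT (64 and 47) the counts were 390 and 355 with DESeq2, 36 and 73 with GAPDH, 153 and 170 with at least 10 counts, 38 and 22 with 2 groups, 428 and 398 at 0.05, 80 lower with no filter, 81 lower with limma on log2(FPKM + 1), and 0 to 3 and 0 to 0 without 1 library. Replicate numbers did not pair the libraries (correlations of deviations -0.135 to 0.0501, and 0.0205 between NT and TAM + TPL). With the replicate block TAM + TPL against NT had 128 and 186 calls, and TAM against NT 28 and 9. The distance difference of 0.432 was 0.372 with a prior count of 10, 0.469 with the upper quartile and 0.491 with numeric gene IDs alone. The ratio of 1.79 was 1.66 with GAPDH, and the position of 0.101 was -0.0179, and, in a split chosen after seeing the data, 0.103 for entries of at least 2000 bases and 0.0956 for shorter ones. The diagonal correlation of -0.479 was -0.514 with numeric gene IDs, -0.536 with at least 10 counts, and -0.489 to -0.443 without 1 library. The medians of 1.26 and -0.92 for transformation genes were 1.38 and -0.79 with a prior count of 0.5, 1.08 and -1.25 with 10, 1.16 and -1.12 with GAPDH, 1.48 and -0.71 with the upper quartile, 1.46 and -1.06 with numeric gene IDs, and 1.18 and -1.19 with at least 10 counts. Of 18 list members called higher and 38 lower, 10 were higher with GAPDH, and 1 to 2 and 0 to 5 without 1 library. With any start site 84.9% and 50.5% of called-lower genes and 68.0% and 53.8% of all tested genes lay in NT and TAM + TPL peaks. At 1 FPKM or more the mean number of genes per library was 13546.5 in NT, 13405.5 in TAM and 14396 in TAM + TPL. The causes were not tested. With 2 libraries a group, precision rests on spread shared across genes and groups, and differences below 1.2 on the log2 scale were not called.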
